A study of Mus musculus with 30 samples.

Results

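The proteasome genes described here are 44 of the 35727 genes in a table of normalized counts from mouse bone marrow haematopoietic stem cells (HSCs), the blood-forming stem cells of the marrow. They were chosen by name, as all genes with a Psma, Psmb, Psmc, Psmd, Psme, Psmf or Psmg symbol followed by a number and with a mean of at least 50 over the 30 libraries. Of 48 such symbols, Psmb8, Psmb9 and Psmb10, the catalytic subunits of the immunoproteasome, were left out by name. Psmb11, a catalytic subunit of the thymus, was below the limit with a mean of 34.7 normalized counts. The lowest gene inside the limit was Psma8, with a mean of 696. All 44 passed the filter on low values.

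The study profiled HSCs of mice labelled IL1R1 KO, which lack the receptor for the cytokine interleukin-1, of bowel germ-free mice, which were raised without gut microbes, and of wild-type (WT) mice. IL1R1 KO mice gave 3 libraries at 2 months, 4 at 1 year and 5 at 2 years of age. Germ-free mice gave 2 libraries at 1 year and 3 at 2 months. WT mice gave 4 libraries at 2 months, 5 at 1 year and 4 at 2 years. The design text counts 30 mice, but no label ties a library to an animal, so a p-value measures the spread between libraries only. Neither the strain and sex nor the deleted allele or the sort markers are stated in the labels. Between 4000 and 5000 sorted cells per sample were lysed, and cDNA was made with Smart-seq2, which copies whole polyadenylated transcripts and does not mark strand. The estimated depth was 15.6 to 56.3 M reads per library.

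Il1r1 was not lower in the libraries labelled IL1R1 KO, with 186 to 409 normalized counts there and 137 to 383 in WT libraries. A count over the whole gene does not check a deletion of a part of it, so each direction between IL1R1 KO and WT below rests on the label. One library, IL1R1 KO 1 year replicate 1, has an age label of 2 months and a title of 1 year, and it was kept at 1 year. The 16 HSC identity markers were all detected in every group. Neutrophil and primary granule markers varied widely, with a summed level of 6118 to 160999 per library, and 6 of the 10 libraries at 2 months held at least 10000 normalized counts of Mpo. So did 3 older libraries, IL1R1 KO 1 year replicate 2 and WT 2 years replicates 1 and 4, which stayed in the fits without the 6. At 2 months those fits kept only IL1R1 KO replicate 2, germ-free replicate 2 and WT replicates 1 and 3. The 12 markers of T and NK cells were low, with a mean log2 level of 3.08 to 4.11 by group and 1 to 5 of the 12 at 0 in all libraries of a group.

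The 26S proteasome degrades proteins that carry ubiquitin chains. Its 20S core is a barrel of alpha and beta rings, and 3 of the beta subunits cut the chain. A 19S particle on the end of the barrel binds the ubiquitin, unfolds the protein with a ring of ATPases and feeds it in. Other activators can take the place of the 19S particle, and dedicated chaperones assemble both parts. Nfe2l1 is known to raise proteasome gene transcription when proteasome activity falls short, through antioxidant response elements (AREs) in the promoters. HSCs are known for low protein synthesis and for their sensitivity to misfolded protein.

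Promoters of 36 of the 44 genes, 250 bases before to 50 bases after the gene start, were matched in RefSeq (GRCm38.p6). Psma8, Psmb1, Psmb2, Psmb7, Psmc3, Psmd3, Psmd7 and Psmg2 were not matched. On both strands, the search used TGACNNNGC for the ARE, CCGGAAGT for an ETS-type site, GCGC, any base and TGCGC for the site of nuclear respiratory factor Nrf1, GGGCGG for the GC box, and CCAAT. Psma1 is shown because it passed a test between ages, and its window held 2 GC boxes and 2 CCAAT boxes. Psma2 and Psmg3 stand for the Nrf1 and ETS-type letters, Psmb5 for a catalytic subunit with the ARE letters, and Psme4 for an activator with both ARE and ETS-type letters. The windows lie at chr7:114276067-114276366 (Psma1, minus strand), chr13:14612992-14613291 (Psma2, plus), chr14:54617946-54618245 (Psmb5, minus), chr5:139826845-139827144 (Psmg3, minus) and chr11:30771525-30771824 (Psme4, plus). Capitals mark matches to the 5 motifs, and in Psme4 a GC box and the ETS-type match share a base.
Psma1: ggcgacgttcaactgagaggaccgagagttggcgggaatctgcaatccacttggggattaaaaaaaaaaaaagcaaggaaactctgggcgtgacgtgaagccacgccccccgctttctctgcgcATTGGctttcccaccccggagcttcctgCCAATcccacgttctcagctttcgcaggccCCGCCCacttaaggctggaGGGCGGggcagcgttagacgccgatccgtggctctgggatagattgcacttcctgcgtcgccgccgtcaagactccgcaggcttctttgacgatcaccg
Psma2: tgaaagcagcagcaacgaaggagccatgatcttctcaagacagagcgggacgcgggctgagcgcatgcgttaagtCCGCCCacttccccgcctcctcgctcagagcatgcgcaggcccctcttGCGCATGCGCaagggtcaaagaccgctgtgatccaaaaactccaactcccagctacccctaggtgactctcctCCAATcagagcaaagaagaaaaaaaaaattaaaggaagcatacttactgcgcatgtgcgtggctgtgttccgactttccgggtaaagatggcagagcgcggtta
Psmb5: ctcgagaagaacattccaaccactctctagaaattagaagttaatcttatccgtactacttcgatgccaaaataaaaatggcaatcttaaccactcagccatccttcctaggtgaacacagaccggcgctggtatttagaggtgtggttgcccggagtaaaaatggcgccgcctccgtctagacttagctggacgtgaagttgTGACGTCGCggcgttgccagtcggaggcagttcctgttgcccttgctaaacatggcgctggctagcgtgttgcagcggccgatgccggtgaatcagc
Psmg3: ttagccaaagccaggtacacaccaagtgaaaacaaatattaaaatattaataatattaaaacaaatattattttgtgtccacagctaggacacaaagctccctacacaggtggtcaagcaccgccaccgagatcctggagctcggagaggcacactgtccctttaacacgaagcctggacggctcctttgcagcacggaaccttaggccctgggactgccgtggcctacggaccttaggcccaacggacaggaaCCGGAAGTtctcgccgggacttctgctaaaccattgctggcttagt
Psme4: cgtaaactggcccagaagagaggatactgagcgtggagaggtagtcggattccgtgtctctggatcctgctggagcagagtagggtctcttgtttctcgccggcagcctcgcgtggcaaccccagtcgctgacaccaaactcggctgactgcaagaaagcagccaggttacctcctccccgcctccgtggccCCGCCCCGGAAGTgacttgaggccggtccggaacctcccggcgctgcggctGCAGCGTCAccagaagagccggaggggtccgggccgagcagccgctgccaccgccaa

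The ARE letters were in 6 of the 36 genes, Psmb5, Psmb6, Psmc6, Psmd9, Psmd12 and Psme4, which is 16.7%, beside 14.0% of 27025 genes. A gene was counted if any of its promoters held the letters. ETS-type letters were in 9 of 36 (25%, beside 4.31% of all), and Nrf1 letters in 7 (19.4%, beside 5.19%). The GC box was in 22 of 36 (61.1%, beside 38.2%) and CCAAT in 12 (33.3%, beside 41.1%). In the 5 comparisons with 2 months, the median log2 change of the 6 genes with ARE letters was below that of the 30 without in 2, IL1R1 KO HSCs at 2 years (-0.19 with, -0.15 without) and WT HSCs at 2 years (-0.09 with, -0.08 without). In the other 3 it was above, with -0.11 and -0.14 in IL1R1 KO HSCs at 1 year, -0.08 and -0.13 in germ-free HSCs at 1 year, and -0.05 and -0.09 in WT HSCs at 1 year. The letters are a description of these windows and not evidence of binding.

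Levels between genes were compared as the mean normalized count per kilobase of transcript. Across the 44 genes this level spanned 46.9-fold. The highest was Psme1 at 8364, a subunit of the PA28 activator that interferon induces, ahead of the alpha subunit Psma7 at 8042 and the beta subunit Psmb2 at 7020. The lowest was Psme4 at 178, which encodes the activator PA200, and the next was Psma8 at 411, an alternative alpha subunit known from mouse testis. The 14 other subunits of the 20S core ran from 1854 (Psma2) to 8042 per kilobase, a 4.34-fold range with a median of 4436. The 17 subunits of the 19S particle, which excludes its 3 assembly chaperones, ran from 1262 (Psmc6) to 3549 (Psmd4, a ubiquitin receptor), a 2.81-fold range with a median of 2267. The 3 chaperones of the 19S base (Psmd5, Psmd9, Psmd10) had 621 to 929 per kilobase, below all 19S subunits. The 4 chaperones of the 20S core (Psmg1 to Psmg4) had 951 to 1614, which is below all of the 14 core subunits and overlaps the 19S subunits. Psmf1, which encodes the proteasome-binding protein PI31, had 734.

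**Figure D1:**
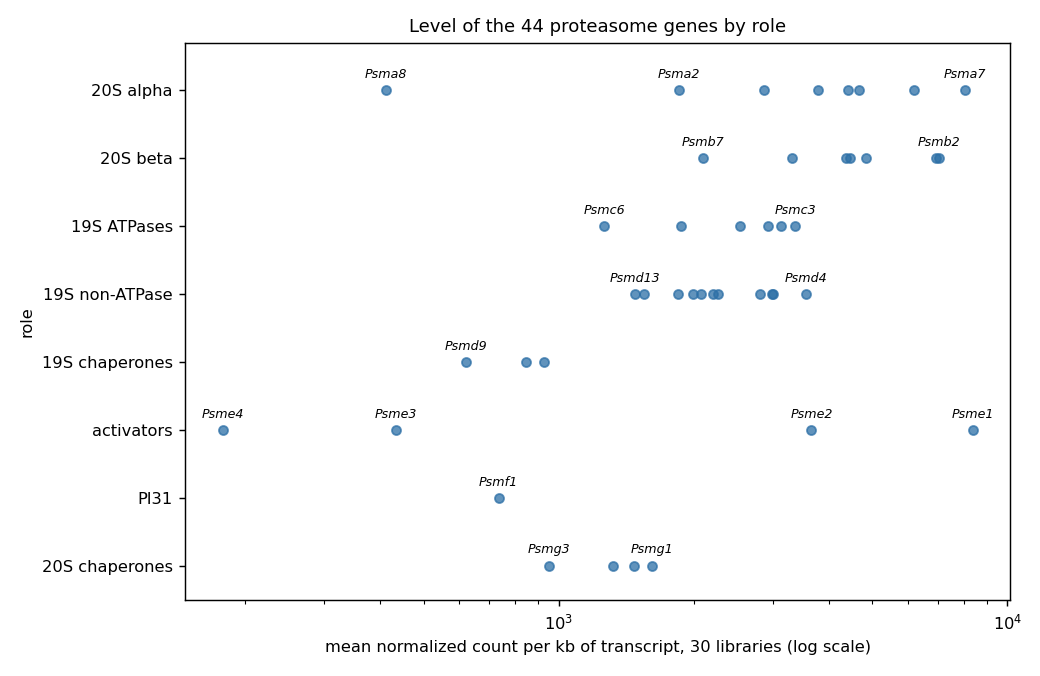
Mean normalized count per kilobase of transcript over 30 libraries (log scale, horizontal) for each of 44 proteasome genes (points), in rows by role. The 20S core subunits other than Psma8 lie between 1854 and 8042, and Psme4 is lowest at 178.

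The proteasome genes varied little between libraries. Their coefficient of variation over the 30 libraries had a median of 12.2%, with a range of 6.88% (Psma5) to 24.0% (Psme2). The 7474 tested genes in the same range of levels had a median of 15.8%, and all 16958 tested genes had 25.6%. The most variable were Psme2, the testis-type Psma8, Psme4 and Psme3. Psme2 has a near-identical copy, Psme2b (mean 187), with which reads can be shared. Reads of genes on the opposite strand cannot be told apart here, which touches Psmd13 (overlapped by Sirt3, mean 6753), Psmc3 (Slc39a13, 1697) and Psmb7 (Nek6, 1185), while Psma2 overlaps AW209491 (1133) on its own strand.

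Summed over the 44 genes, the proteasome took 0.530% to 0.730% of the normalized counts of a library. In IL1R1 KO HSCs the share was 0.674% ± 0.049 at 2 months (SD, n = 3), 0.610% ± 0.033 at 1 year (n = 4) and 0.608% ± 0.017 at 2 years (n = 5). Germ-free HSCs had 0.602% ± 0.008 at 1 year (n = 2) and 0.653% ± 0.040 at 2 months (n = 3). WT HSCs had 0.653% ± 0.017 at 2 months (n = 4), 0.626% ± 0.029 at 1 year (n = 5) and 0.611% ± 0.054 at 2 years (n = 4). Every group mean at 2 months was above the later ones of its genotype. The ages overlapped in germ-free and in WT HSCs, and in IL1R1 KO HSCs 1 year (0.582% to 0.649%) overlapped 2 months. In IL1R1 KO HSCs all 5 libraries at 2 years (at most 0.620%) were below all 3 at 2 months (at least 0.637%). The 2 extreme libraries were IL1R1 KO 2 months replicate 1, at 0.730% with 41 of the 44 genes above their own median, and WT 2 years replicate 3, at 0.530% with 4 of 44. In these bulk samples, fewer cells of a type and less RNA per cell cannot be told apart.

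**Figure D2:**
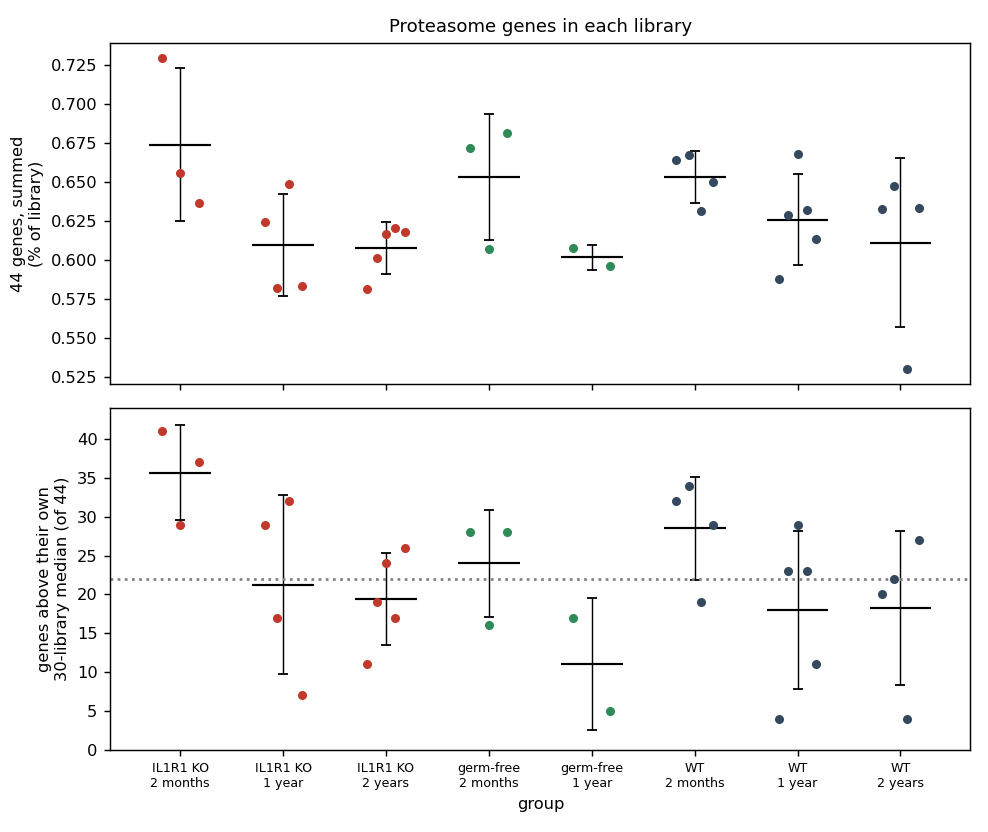
Share of the library's normalized counts taken by the 44 proteasome genes (upper panel, %) and number of the 44 above their own 30-library median (lower panel), by group. Points are libraries, bars are the mean with SD, and the upper axis does not start at 0; at 2 months the group means are 0.674% in IL1R1 KO, 0.653% in germ-free and 0.653% in WT HSCs.

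The first question of the design is what age does within each genotype. Changes are log2 of the later over the earlier age, tested with limma over all 16958 genes, and a gene is called when its Benjamini-Hochberg adjusted p is under 0.05. Comparisons at 1 year and 2 years share the libraries at 2 months, so their values are given side by side and are not independent. The median standard error of a single gene was 0.11 to 0.14 in the comparisons with 2 months and describes single genes, not the median over the 44.

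In IL1R1 KO HSCs the genes were mostly below their level at 2 months, and 1 passed the test. At 2 years against 2 months, 1 of the 44 genes was called, lower, beside 8.02% of all tested genes in either direction and 2.9% lower. The median log2 change was -0.15, with 38 of 44 negative, and the median of all tested genes was 0.00, with 49.5% negative. At an unadjusted p under 0.05 there were 13 lower, beside 9.21% of all genes, and 0 higher, beside 11.6%. The groups did not overlap for 9 genes that were lower, beside 7.44% of all genes, and for 0 that were higher, beside 8.83%. At 1 year against 2 months 0 of 44 were called, beside 2% of all genes, with 10 lower and 0 higher at an unadjusted p under 0.05, beside 6.41% and 7.94% of all genes. The median was -0.14, with 41 of 44 negative, beside 49.4% of all genes. The groups did not overlap for 5 lower genes, beside 5.34% of all genes, and for 1 higher, beside 6.06%. Between 2 years and 1 year the median was -0.00, and 0 were called beside 0.177%, with 1 lower at an unadjusted p under 0.05, beside 3.2% of all genes.

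The called gene was Psma1, a subunit of the alpha ring. In IL1R1 KO HSCs at 2 years its libraries had 6593, 6731, 7052, 7278 and 7156 normalized counts, against 10136, 8266 and 8779 at 2 months. All 5 later libraries were below the lowest one at 2 months. The log2 change was -0.38 ± 0.10 (SE), with an adjusted p of 0.0225. At 1 year the IL1R1 KO libraries had 6621, 7393, 7276 and 6874, also all below those at 2 months, and the change of -0.36 ± 0.11 missed the threshold (adjusted p = 0.0839). Germ-free HSCs had 6223 and 6611 at 1 year, against 8972, 7270 and 9129 at 2 months, a change of -0.39 ± 0.13 that was not called (adjusted p = 0.118). WT libraries overlapped, with 7286 to 8332 at 2 months, 6072 to 8299 at 1 year and 5393 to 7859 at 2 years. The call in IL1R1 KO HSCs was lost without the library at 2 months that stands highest, replicate 1 (-0.29, adjusted p = 0.179), and without 2 years replicate 1 (adjusted p = 0.0509). It was also lost when IL1R1 KO 1 year replicate 1 was moved to 2 months, where its age label puts it (-0.26, adjusted p = 0.178).

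Among the catalytic subunits, Psmb5, which carries the chymotrypsin-like activity, came next to the threshold. IL1R1 KO libraries at 2 years had 3423, 3645, 3672, 4016 and 4026 normalized counts of Psmb5, against 5991, 4529 and 4602 at 2 months. The groups did not overlap, and the log2 change was -0.41 ± 0.13 (adjusted p = 0.0525). Psmb6, the caspase-like subunit, had -0.24 ± 0.11 and Psmb7, the trypsin-like subunit, had -0.12 ± 0.09, neither called. The 7 beta ring genes were negative in all cases, with a median of -0.21 at 2 years and -0.15 at 1 year. The 6 ATPases of the 19S base were also all negative, with medians of -0.16 and -0.17 at those ages.

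The chaperones of core assembly had the lowest median of any role in IL1R1 KO HSCs at 2 years, -0.33, and 0 of the 4 were called. Psmg3 had -0.45 ± 0.15 (adjusted p = 0.0663), with 689, 686, 744, 734 and 780 normalized counts at 2 years against 1261, 795 and 969 at 2 months, and the groups did not overlap. Psmg2 had -0.35 ± 0.12, Psmg4 -0.31 ± 0.15 and Psmg1 -0.11 ± 0.11. The 11 non-ATPase subunits of the 19S particle had a median of -0.16. Of these, Psmd13 had -0.39 ± 0.13 (adjusted p = 0.0603) and Psmd6 -0.32 ± 0.11 at 2 years, and Psmd6 had -0.37 ± 0.11 (adjusted p = 0.0894) at 1 year. The 19S chaperones Psmd5, Psmd9 and Psmd10 had -0.10, -0.21 and -0.10 at 2 years.

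**Figure D3:**
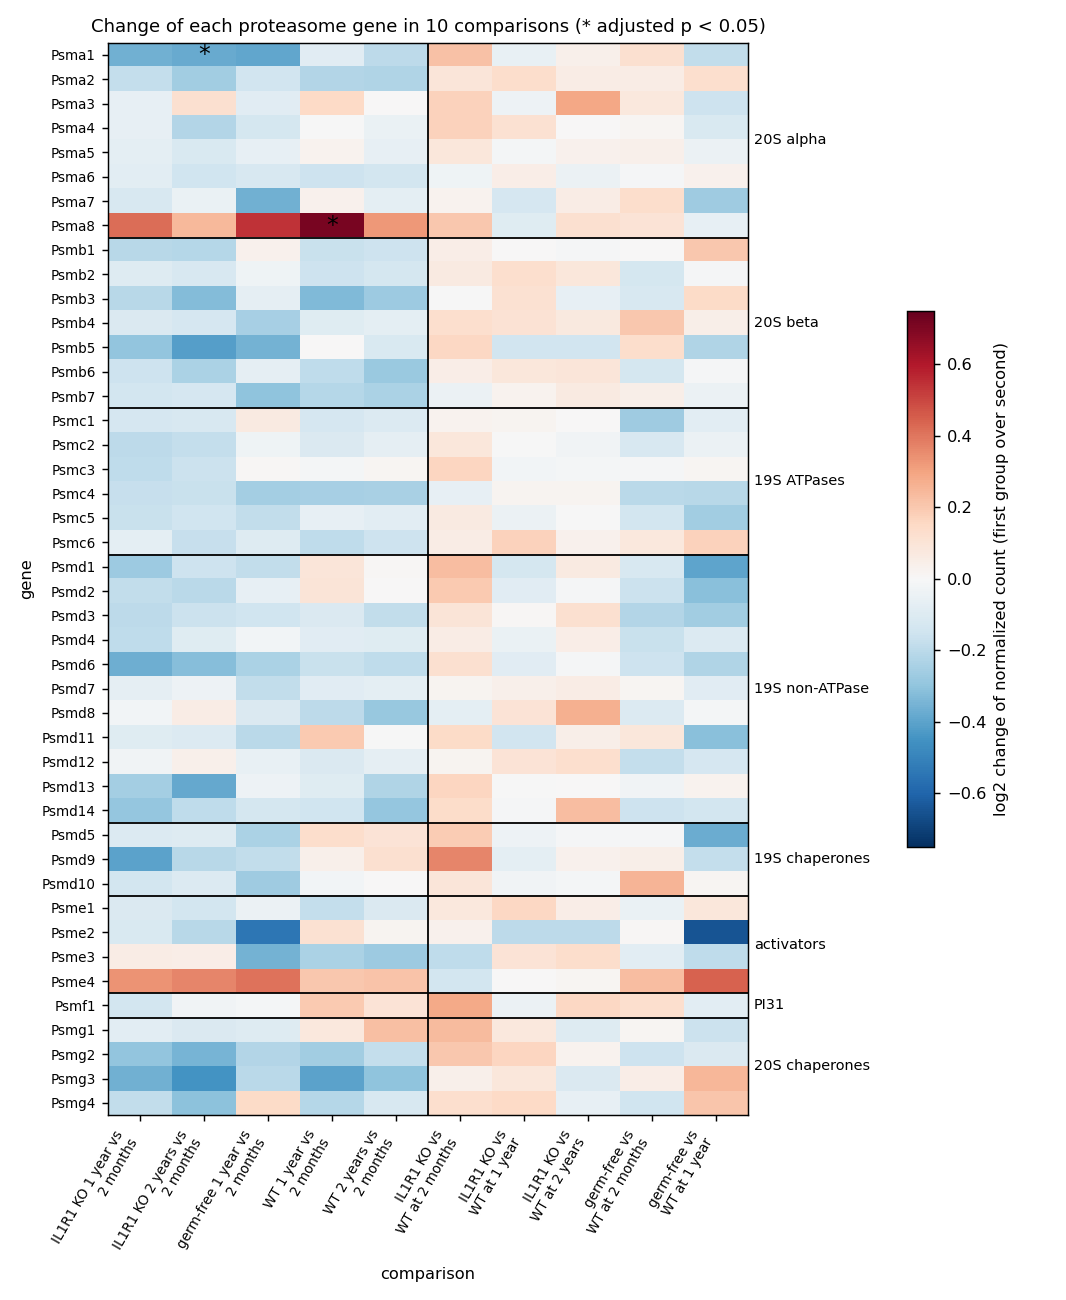
Log2 change of the normalized count (colour, first group over second) for 44 proteasome genes (rows, by role) in 10 comparisons (columns). Stars mark an adjusted p under 0.05: Psma1 in IL1R1 KO 2 years against 2 months and Psma8 in WT 1 year against 2 months; the columns left of the vertical line compare ages, and those right of it compare genotypes.

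In germ-free HSCs at 1 year against 2 months, 0 of the 44 genes were called, beside 2.1% of all tested genes. At an unadjusted p under 0.05 there were 4 lower, beside 7.37% of all genes, and 1 higher, beside 7.84%. The median log2 change was -0.12, with 38 of 44 negative, beside 48.8% of all genes. Both ages stood apart for 11 lower genes, beside 12.6% of all genes, and for 2 higher, beside 13.9%. The 3 catalytic subunits had Psmb5 at -0.35 ± 0.17, Psmb7 at -0.30 ± 0.11 and Psmb6 at -0.07 ± 0.14. With 2 libraries at 1 year, this comparison had the widest errors of the 5 with 2 months. Psma1 and Psmb7 had the smallest p of the 44, with adjusted p of 0.118 and 0.172.

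In WT HSCs at 1 year against 2 months, 1 of the 44 genes was called, higher, beside 10.7% of all tested genes in either direction and 6.12% higher. That gene was Psma8, and the other estimates were mostly negative. The median log2 change was -0.09, with 30 of 44 negative, beside 48.3% of all genes. At an unadjusted p under 0.05 there were 9 lower, beside 10.9% of all genes, and 1 higher, beside 12.7%. The median of all genes was 0.01. Without overlap between the ages were 4 lower genes, beside 5.62% of all genes, and 1 higher, beside 6.89%. At 2 years against 2 months 0 were called, beside 5.55% of all genes, with 6 lower and 1 higher at an unadjusted p under 0.05, beside 7.71% and 10.3% of all genes. The median was -0.10, with 32 of 44 negative, beside 48.9% of all genes. Here 6 lower genes had groups without overlap, beside 3.82% of all genes, and 0 higher ones, beside 5.31%. Between 2 years and 1 year 0 were called, beside 0.0118% of all genes, with 1 lower at an unadjusted p under 0.05, beside 2.09% of all genes, and a median of -0.01.

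Psma8 had 658, 789, 944, 818 and 1064 normalized counts in WT HSCs at 1 year, against 521, 460, 511 and 576 at 2 months. All 5 libraries at 1 year were above all 4 at 2 months. The log2 change was 0.71 ± 0.19 (SE), with an adjusted p of 0.0124. At 2 years WT libraries had 879, 606, 410 and 801, which span both other ages, and the change against 2 months was 0.33 ± 0.20 (adjusted p = 0.41). IL1R1 KO libraries had 609, 576 and 597 at 2 months, 773, 847, 862 and 702 at 1 year, and 589, 741, 648, 672 and 905 at 2 years. The change at 1 year against 2 months in IL1R1 KO HSCs was 0.42 ± 0.21 (adjusted p = 0.372), without overlap of the groups. Germ-free libraries had 740 and 880 at 1 year, against 673, 400 and 629 at 2 months, a change of 0.54 ± 0.25 (adjusted p = 0.296). The change to 1 year differed from that in WT HSCs by -0.29 ± 0.28 in IL1R1 KO and -0.16 ± 0.31 in germ-free HSCs, neither called. The call in WT HSCs held in 23 of 24 other settings, and without the 2-month libraries with high Mpo the change was 0.71 with an adjusted p of 0.0741.

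Psme4 was the other gene with a positive estimate in all 5 comparisons with 2 months, and it was called in none. Its log2 changes were 0.34 ± 0.21 at 1 year and 0.37 ± 0.20 at 2 years in IL1R1 KO HSCs, 0.41 ± 0.25 at 1 year in germ-free HSCs, and 0.20 ± 0.19 at 1 year and 0.22 ± 0.20 at 2 years in WT HSCs. The libraries were wide apart, with 590, 1281 and 995 normalized counts in IL1R1 KO HSCs at 2 months. The 2 germ-free libraries at 1 year had 1227 and 1984, against 1190, 1158 and 1180 at 2 months.

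**Figure D4:**
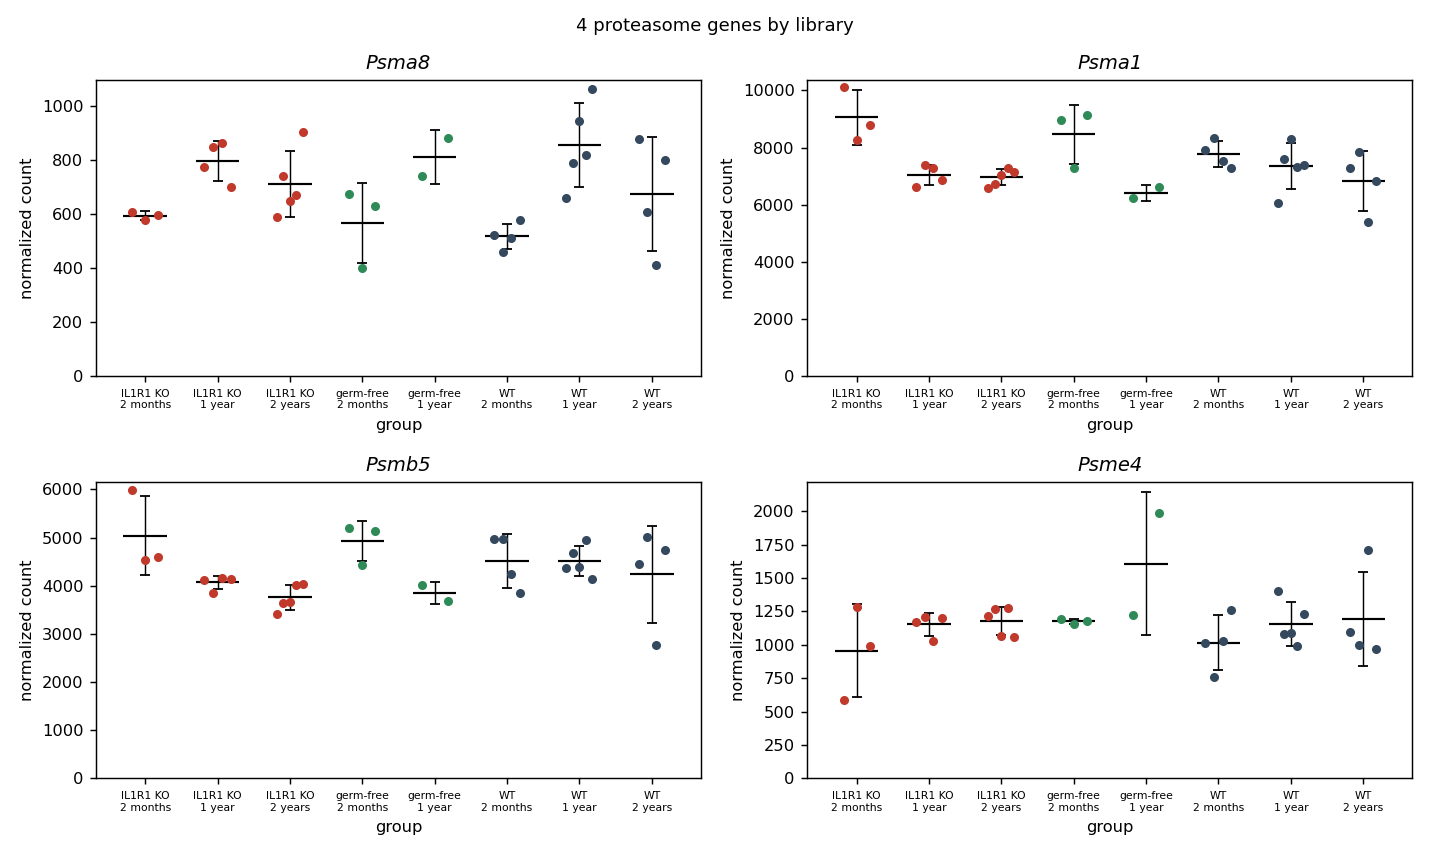
Normalized counts of Psma8, Psma1, Psmb5 and Psme4 in each library (points) by group, with mean and SD (bars). Psma8 lies at 658 to 1064 in WT HSCs at 1 year, above 460 to 576 at 2 months, and Psma1 lies at 6593 to 7278 in IL1R1 KO HSCs at 2 years, below 8266 to 10136 at 2 months.

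Over the 5 comparisons with 2 months, of which the pairs within IL1R1 KO and within WT share their libraries at 2 months, 22 of the 44 genes (50%) were negative in all 5, and 14.3% of all tested genes were. A further 10 were negative in 4, 9 in 3, 1 (Psma3) in 2, and 2 (Psma8 and Psme4) in 0, the last beside 15.7% of all genes. Shared libraries make signs go together without any change, so the tally is a description. Among the 22 were 5 of the 7 beta ring genes, 4 of the 6 ATPases and Psmg2 and Psmg3. In WT HSCs the catalytic subunits had Psmb7 at -0.21 ± 0.08 and Psmb6 at -0.19 ± 0.11 at 1 year, and -0.24 ± 0.09 and -0.28 ± 0.11 at 2 years, none called. Psmb5 was at 0.00 ± 0.12 at 1 year and -0.12 ± 0.13 at 2 years. The smallest p at 2 years in WT HSCs were those of Psmd8 (-0.28 ± 0.10, adjusted p = 0.108) and Psmb7 (adjusted p = 0.117). At 1 year, Psmb3 (-0.33 ± 0.11, adjusted p = 0.0518) and Psmg3 (-0.40 ± 0.14, adjusted p = 0.062) were next after Psma8.

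The activators differed from each other in these estimates, and the differences between them were not tested. Psme1 had -0.18 ± 0.06 at 1 year (adjusted p = 0.0748) and -0.11 ± 0.07 at 2 years in WT HSCs, and -0.11 ± 0.07 and -0.14 ± 0.07 at those ages in IL1R1 KO HSCs. Its partner in PA28, Psme2, had 0.11 ± 0.22 and 0.02 ± 0.23 in WT HSCs, and -0.12 ± 0.25 and -0.21 ± 0.23 in IL1R1 KO HSCs. Psme3, the nuclear PA28 subunit, had -0.24 ± 0.18 and -0.27 ± 0.19 in WT HSCs, and 0.06 ± 0.21 and 0.05 ± 0.20 in IL1R1 KO HSCs. For Psmf1 the values were 0.19 ± 0.12 and 0.11 ± 0.12 in WT HSCs, and -0.14 ± 0.14 and -0.03 ± 0.13 in IL1R1 KO HSCs. In germ-free HSCs at 1 year Psme1 had -0.05, Psme2 -0.54 and Psme3 -0.35, none called.

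Cell cycle genes moved with the same comparisons. Of 36 cell cycle genes, 9 and 17 were called lower in IL1R1 KO HSCs at 1 year and 2 years, 2 in germ-free HSCs at 1 year, and 20 and 8 in WT HSCs at 1 year and 2 years, with 0 called higher. Of all tested genes, 0.613% and 2.9% were called lower in those IL1R1 KO comparisons, 0.814% in the germ-free one, and 4.61% and 1.63% in the WT ones. The mean log2 level of the list was 11.4, 10.8 and 10.8 at 2 months, 1 year and 2 years in IL1R1 KO HSCs, 10.8 at 1 year and 11.2 at 2 months in germ-free HSCs, and 11.2, 10.5 and 10.7 at 2 months, 1 year and 2 years in WT HSCs. With that level as a covariate, the median change of the proteasome genes was 0.03 and 0.01 in IL1R1 KO HSCs at 1 year and 2 years, -0.02 in germ-free HSCs, and 0.09 and -0.01 in WT HSCs. Psma1 was then not called in IL1R1 KO HSCs at 2 years (-0.22, adjusted p = 0.369). In each of the 5 comparisons every later library was below every library at 2 months on that level, so that age and the cell cycle level cannot be told apart in any of them. Without the 6 libraries at 2 months with high Mpo the medians were -0.06 and -0.07 in IL1R1 KO HSCs, -0.05 in germ-free HSCs, and -0.07 and -0.05 in WT HSCs. That fit had 1 library at 2 months in IL1R1 KO and 1 in germ-free HSCs, so those medians rest on single libraries. Without IL1R1 KO 2 months replicate 1 the IL1R1 KO medians were -0.08 at both ages, and without WT 2 years replicate 3 the WT median at 2 years was -0.04.

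**Figure D5:**
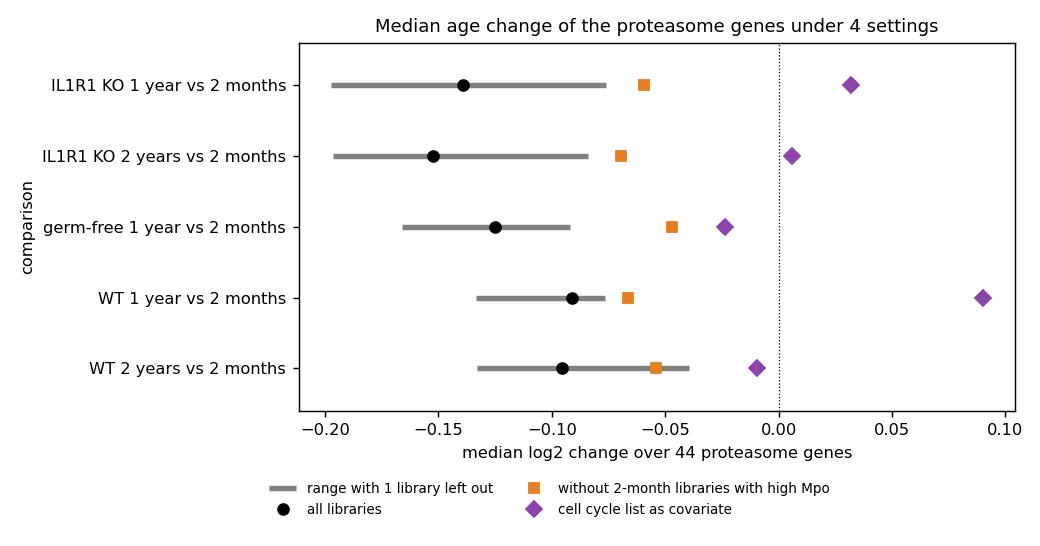
Median log2 change over the 44 proteasome genes in the 5 comparisons with 2 months (rows), with all libraries (circles), with 1 library left out (grey range), without the 6 libraries at 2 months with high Mpo (squares) and with the cell cycle level as a covariate (diamonds). Circles lie between -0.15 and -0.09, and diamonds between -0.02 and 0.09. Squares rest on 1 library at 2 months in IL1R1 KO and 1 in germ-free HSCs.

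The second question is how the genotypes differ at each age, and 0 of the 44 genes were called in any of these comparisons. At 2 months, libraries labelled IL1R1 KO against WT had a median log2 change of 0.09 with 37 of 44 positive, and 0.407% of all genes were called. At an unadjusted p under 0.05 there were 2 higher, beside 5.19% of all genes, and 0 lower, beside 4.38%. These were Psmf1 (0.29 ± 0.14, adjusted p = 0.508) and Psmd9. Psmd9, a chaperone of the 19S base, had 1929, 1746 and 2219 normalized counts in IL1R1 KO HSCs, against 1734, 1444, 1292 and 1636 in WT HSCs. The groups did not overlap, and its change was 0.37 ± 0.14 (adjusted p = 0.346). Without IL1R1 KO 2 months replicate 1 the median was 0.03. At 1 year the median was 0.00, with 1.3% of all genes called and 1 of the 44, Psme1, higher at an unadjusted p under 0.05 (0.15 ± 0.06, adjusted p = 0.316), beside 5.99% of all genes. At 2 years the median was 0.03, with 1.42% of all genes called and 3 of the 44 higher at an unadjusted p under 0.05, beside 6.53% of all genes. They were Psma3 (0.29 ± 0.11, adjusted p = 0.277), Psmd8 (0.27 ± 0.10, adjusted p = 0.214) and Psmd14, the deubiquitinase of the 19S lid (0.23 ± 0.11, adjusted p = 0.404). Without WT 2 years replicate 3 the median at 2 years was -0.05.

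Germ-free against WT HSCs at 2 months had a median log2 change of -0.01, with 0.601% of all genes called and 2 of the 44 lower at an unadjusted p under 0.05, beside 5.14% of all genes. These were Psmc1 (-0.27 ± 0.10, adjusted p = 0.363) and Psmd3 (-0.22 ± 0.11, adjusted p = 0.512). At 1 year the median was -0.08, with 31 of 44 negative and 4.96% of all genes called. At an unadjusted p under 0.05 there were 6 lower, beside 11.3% of all genes, and 1 higher, beside 8.87%. Psmd1, the large scaffold subunit of the 19S base, had 4628 and 5696 normalized counts in germ-free HSCs at 1 year, against 5724, 6781, 8102, 7046 and 6390 in WT HSCs. Both germ-free libraries were below all WT libraries, and the change was -0.40 ± 0.13 (adjusted p = 0.0664). Psmd5 had -0.37 ± 0.15 (adjusted p = 0.144) and Psme2 had -0.65 ± 0.27 (adjusted p = 0.163). Of 36 cell cycle genes, 4 were called higher and 1 lower in germ-free than in WT HSCs at 1 year, beside 1.83% and 3.13% of all genes. With the cell cycle level as a covariate, 6 of the 44 were called lower there, Psmd1, Psmd2, Psmd3, Psmd5, Psmd11 and Psme2, beside 6.67% of all genes called lower in that fit. On that level both germ-free libraries (10.62 and 10.99) were above all WT libraries (at most 10.58). Group and cell cycle level therefore cannot be told apart in this comparison.

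Whether age acts differently by genotype was tested as a difference of changes, and 0 of the 44 genes were called. For the change to 1 year, IL1R1 KO minus WT, the median difference was -0.09, with 0.0354% of all genes called and 2 of the 44 lower at an unadjusted p under 0.05, Psmd1 (-0.37 ± 0.16) and Psmd9 (-0.44 ± 0.18), beside 5.27% of all genes. For the change to 2 years it was -0.06, with 0.395% of all genes called and 1 higher and 1 lower at an unadjusted p under 0.05, beside 5.49% and 4.24% of all genes. For the change to 1 year, germ-free minus WT, it was -0.06, with 0% called and 1 lower at an unadjusted p under 0.05, Psma7 (-0.40 ± 0.18), beside 6.01% of all genes. Without the 2-month libraries with high Mpo these medians were 0.00, -0.03 and 0.04.

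Genes around the proteasome that are named otherwise were taken from lists by function. Of the 3 immunoproteasome catalytic subunits, Psmb10 was called in 1 comparison, lower in germ-free than in WT HSCs at 1 year (-0.40 ± 0.11, adjusted p = 0.0308), with 2826 and 3707 normalized counts against 3881 to 4646. It was not called without germ-free 1 year replicate 2 (-0.20, adjusted p = 0.413). Pomp, the maturation protein of the 20S core, had 2685 and 2173 in germ-free HSCs at 1 year, against 2952, 3768, 4046, 3562 and 3381 in WT HSCs. Pomp was lower there (-0.54 ± 0.14, adjusted p = 0.0199) and against germ-free HSCs at 2 months, which had 3618, 3342 and 3880 (-0.58 ± 0.15, adjusted p = 0.0361). Without germ-free 1 year replicate 2, which leaves 1 germ-free library at 1 year, the difference of Pomp from WT was -0.39. The change of Pomp from germ-free HSCs at 2 months was then -0.43. The Pomp call against WT was lost without WT 1 year replicate 3 (-0.49, adjusted p = 0.0502). The call against 2 months was lost without germ-free 2 months replicate 1 (-0.58, adjusted p = 0.0724) or replicate 3 (-0.53, adjusted p = 0.115). Sem1, a small subunit of the 19S lid, was lower in WT HSCs at 1 year than at 2 months (-0.42 ± 0.10, adjusted p = 0.0064). The Sem1 call held in 21 other settings and was lost in 3. These were without the 2-month libraries with high Mpo (-0.32, adjusted p = 0.155), and with the neutrophil marker level (-0.35, adjusted p = 0.107) or the cell cycle level (-0.42, adjusted p = 0.0576) as a covariate.

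Of 13 regulators of proteasome gene transcription, 2 were called higher in IL1R1 KO HSCs at 1 year and 4 at 2 years against 2 months, and 0 in WT HSCs at either age. Of all tested genes, 1.39% and 5.12% were called higher in those IL1R1 KO comparisons, and 6.12% and 3.92% in the WT ones, and the difference between genotypes was not tested for the list. Nfe2l1 itself was called in 0 of the 15 comparisons, with 0.29 ± 0.13 in IL1R1 KO HSCs at 2 years (adjusted p = 0.174). Nfe2l2, the NRF2 factor of the oxidative stress response, had 5974, 5370, 5367, 5899 and 5828 normalized counts in IL1R1 KO HSCs at 2 years, against 3439, 3148 and 3282 at 2 months. WT libraries had 4289, 4572, 3428 and 4701 at 2 years, against 4010, 4238, 4001 and 3851 at 2 months. In germ-free HSCs Nfe2l2 was also called higher at 1 year (0.49), beside 1.29% of all genes called higher. Those libraries had 4606 and 4124, against 3169, 3159 and 2963 at 2 months. The germ-free call was lost in 14 other settings and held in 6. Nfe2l2 rose in IL1R1 KO HSCs at 2 years by 0.79 ± 0.11 (adjusted p = 1.37e-05). The difference of this Nfe2l2 change from that in WT HSCs was 0.72 ± 0.15 (adjusted p = 0.0261). The Nfe2l2 dimer partners Maff, Mafk and Mafg rose in IL1R1 KO HSCs at 2 years by 1.76 ± 0.34, 1.44 ± 0.31 and 0.73 ± 0.17. In that comparison 9 of 22 immediate early genes were called higher, and 9 of 12 heat shock chaperone genes were called lower. With the immediate early level as a covariate the Nfe2l2 difference between genotypes was 0.64 (adjusted p = 0.267), the log2 change of Psma1 in IL1R1 KO HSCs at 2 years was -0.29 (adjusted p = 0.239), and the median over the 44 genes there was -0.15. Mafk then had 0.76 (adjusted p = 0.152) and Maff 0.85 (adjusted p = 0.0974), neither called. Without IL1R1 KO 2 months replicate 1, Mafg had 0.56 (adjusted p = 0.078). The Maff call in IL1R1 KO HSCs at 1 year (1.36) was lost in 15 other settings and held in 8. With IL1R1 KO 1 year replicate 1 moved to 2 months, Nfe2l2 at 1 year had 0.32 (adjusted p = 0.426) and Maff 0.65 (adjusted p = 0.652). Mafk at 2 years then had 1.02 (adjusted p = 0.0764), and the Nfe2l2 difference between genotypes was 0.55 (adjusted p = 0.342). None of these was called there, while the Nfe2l2, Maff and Mafg calls at 2 years held.

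Vcp, the p97 ATPase that extracts ubiquitin-tagged proteins and hands them to the proteasome, was lower in germ-free than in WT HSCs at 1 year (-0.35 ± 0.10, adjusted p = 0.0364). That call was lost in 12 of 21 other settings, and without germ-free 1 year replicate 1 the difference was -0.18 (adjusted p = 0.543). Ubb, which encodes polyubiquitin, was higher in IL1R1 KO than in WT HSCs at 1 year (0.45 ± 0.10, adjusted p = 0.02). Without IL1R1 KO 1 year replicate 2 it was 0.36 (adjusted p = 0.148).

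Calls were also few in the other lists. Uba7, the activating enzyme of the ubiquitin-like protein ISG15, rose with age in 4 comparisons, by 0.48 ± 0.10 at 2 years in IL1R1 KO HSCs, 0.48 ± 0.13 at 1 year in germ-free HSCs, and 0.37 ± 0.09 at 1 year and 0.48 ± 0.10 at 2 years in WT HSCs. It was the 1 gene called higher of the 7 ubiquitin and E1 genes in each of these. Of 29 E2 enzymes, which pass ubiquitin on, Ube2c fell at 2 years in IL1R1 KO HSCs (-0.80 ± 0.24) and at 1 year in WT HSCs (-0.96 ± 0.22), and Ube2a fell at 1 year and 2 years in WT HSCs (-0.61 ± 0.14 and -0.50 ± 0.15). Ube2c is also on the cell cycle list, and with that list's level as a covariate its changes were 0.071 in IL1R1 KO and -0.069 in WT HSCs, neither called. The Uba7 call in germ-free HSCs was lost in 12 of 20 other settings, and the Ube2a call at 2 years in 17 of 23. Among 12 parts and partners with other symbols, Zfand5, a proteasome-binding protein, rose in IL1R1 KO HSCs at 2 years (1.16 ± 0.27) and its relative Zfand2a, a stress-induced one, fell (-1.16 ± 0.28). Each call was lost without 1 library at 2 months. Without IL1R1 KO 2 months replicate 1 Zfand5 had 0.71 (adjusted p = 0.124), and without replicate 3 Zfand2a had -0.71 (adjusted p = 0.133).

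The COP9 signalosome and the translation factor eIF3 resemble the 19S lid in their build, and the chaperonin TRiC is another large ring of the cytosol. Of their genes, 1 of 10, 1 of 14 and 1 of 8 were called in WT HSCs at 1 year against 2 months, Cops9 lower (-0.56 ± 0.12), Eif3d higher (0.44 ± 0.12) and Cct2 lower (-0.30 ± 0.10). These 3 of 32 genes stand beside 10.7% of all genes called in that comparison, and the Cct2 call was lost in 14 of 24 other settings. Without the 2-month libraries with high Mpo Eif3d had 0.27 (adjusted p = 0.342). In the comparisons of IL1R1 KO and germ-free HSCs with 2 months, 0 of these 32 genes were called, with 2 at 1 year and 3 at 2 years in IL1R1 KO HSCs and 3 in germ-free HSCs at an unadjusted p under 0.05. Germ-free HSCs at 1 year had Cops7a lower (-0.44 ± 0.12), Cops9 higher (0.60 ± 0.16) and Eif3d lower (-0.85 ± 0.15) than WT HSCs, 3 of 32 beside 4.96% of all genes. Without germ-free 1 year replicate 1, Cops9 had 0.33 (adjusted p = 0.479), Cops7a -0.46 (adjusted p = 0.155) and Eif3d -0.78 (adjusted p = 0.0563), none called.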

How the data were processed

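RNA of sorted HSCs was sequenced from 1 end in 30 libraries. The submitters' processing notes name Salmon 1.2.0.0 and DESeq2 1.26.0 beside cutadapt 2.10 and FastQC 0.11.9, and the build GRCm38 (mm10). The deposited values are normalized counts, a signal scale that the authors normalized before deposit, probably with each library divided by its own factor. The form of that normalization is not stated in the processing notes. The step from transcripts to genes is not stated there. Depth was estimated from the step between low values. Most low values were not whole multiples of that step, so no count test was run. IDs were matched to GENCODE symbols (35422 of 35727). No 2 libraries held identical values.

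Values were tested as log2(normalized count + 1) with limma 3.58.1 in R 4.3.3, by group means over all 30 libraries, with trend and robust settings, two-sided, and Benjamini-Hochberg adjustment over the 16958 genes with at least 10 in at least 3 libraries. Fold changes on this scale understate changes of low genes. The code was tested on simulated data. Levels per kilobase used the length of the principal transcript. All members and lists were chosen with earlier results of these data known, and no set test was run. Named were the catalytic subunits, activators and chaperones, each called member, the 2 smallest p where none was called, and called genes of the lists. Alternatives were other pseudocounts, filters, scalings, weights and covariates, a replicate block, and each library left out.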

Additional observations from a re-analysis of the deposited data

Results flagged for a closer look

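In groups of 4 or 5 libraries, 1 library stood far from the rest of its group in 8 of 75 cases tested over the named genes and the summed share, where chance gives about 1 in 20. WT 2 years replicate 3 had 1902 normalized counts of Psmb7, against 2361 to 2419 in the rest of its group, and a summed proteasome share of 0.530%, against 0.633% to 0.647%. WT 2 years replicate 4 had 1704 of Psme3, and WT 2 years replicate 1 had 1295 of Psmg2. WT 2 months replicate 4 had 3249 of Psmf1, and WT 2 months replicate 3 had 638 of Psmg4. IL1R1 KO 1 year replicate 2 had 3859 of Psmb5, and IL1R1 KO 2 years replicate 5 had 1796 of Psmg1. The change of Nfe2l2 to 2 years differed between IL1R1 KO and WT HSCs by 0.72 on the log2 scale, by limma's test of the difference (adjusted p = 0.0261). That call was lost under 12 other settings.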

How the results depend on the processing

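The Psma1 call in IL1R1 KO HSCs depended on single libraries, and the Psma8 call in WT HSCs held with any 1 library left out. Counts of called genes changed in 5 of 15 comparisons. In WT HSCs at 1 year against 2 months (1 called), the count was 2 with the stricter filter, only the groups compared or the immediate early covariate, 3 with sum scaling, array weights or the cell cycle covariate, 4 with quantile scaling (1 higher and 3 lower) and 0 without the 2-month libraries with high Mpo. It was 1 to 5 with 1 library left out, with 5 without WT 2 months replicate 3. In IL1R1 KO HSCs at 2 years against 2 months (1 called), it was 2 with the stricter filter, only the groups compared or weights. It was 4 with quantile or sum scaling, and 0 with the age label at 2 months or with the immediate early or cell cycle covariate. It was 0 to 4 with 1 library left out. Without the high-Mpo libraries 1 IL1R1 KO library was left at 2 months, and the log2 change of Psma1 was -0.25. Quantile scaling gave 1 call each in WT HSCs at 2 years, in IL1R1 KO HSCs at 1 year (0 to 1 with 1 library left out) and in germ-free against WT HSCs at 1 year. The last had 6 with the cell cycle covariate and 0 to 1 with 1 library left out, at 1 without germ-free replicate 2 or WT replicate 1. Ube2c, itself in the cell cycle list, turned to 0.071 in IL1R1 KO HSCs at 2 years with that covariate. Where the count is not explained by fewer libraries or genes, the cause was not tested.

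Replicate numbers did not pair the libraries, since correlations of same-numbered deviations ran from -0.11 to 0.157. With the replicate block, 0 genes were called in IL1R1 KO HSCs at 2 years (Psma1 adjusted p = 0.0501), and no other count moved.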
